A study of Mus musculus with 4 samples.

Results

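The collagen chain genes are the genes whose symbol in the array's annotation is Col, a number, the letter a and a number, such as Col1a1. They were found by that pattern of the name among the rows of the array that carry a single gene symbol, and the name pattern uses no measured value. The array held 46 such rows for 44 genes, out of 19934 genes tested. A gene with several rows is represented by the one whose mean across the arrays was highest. The 44 genes comprise 8 basement membrane collagens (types IV, XV and XVIII), 11 fibrillar collagens (types I, II, III, V, XI, XXIV and XXVII) and 25 other collagens.

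Collagen chains wind around each other in a helix of repeated glycine-containing units and are the main structural proteins of extracellular matrix. Type IV chains form the sheet-like network of basement membranes, and in kidney the chains encoded by Col4a3, Col4a4 and Col4a5 build the filtration barrier of the glomerulus, where inherited loss of them causes Alport syndrome. Fibrillar collagens, chiefly types I and III, form the rope-like fibres of the interstitium and accumulate when a kidney scars. The remaining types decorate fibrils, form beaded filaments or short networks, or span the cell membrane.

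RNA levels were measured in the whole kidney of male C57BL6/N mice, of the genotypes Usp2-KO (knockout of Usp2, which encodes a ubiquitin-specific protease) and WT, which were littermates. Both groups were 12 weeks old, kept for 3 weeks under 12 h of light and 12 h of dark, and killed at Zeitgeber Time 12. RNA of 3 mice was combined in each pool, so that 6 littermate pairs gave 2 WT and 2 Usp2-KO pools. Usp2-KO and WT pools of the same number were taken to hold littermates. The sample titles give only genotype, tissue and pool number. The labels name no part of Usp2 that was removed and no treatment. Because mice were pooled, variation from animal to animal is hidden. Standard errors and p-values by limma rest on variation between pools only. For each gene limma combines its own pools (2 degrees of freedom) with a value drawn from all genes (6.87 degrees of freedom). Whole kidney mixes all cell types. Fewer cells of a type and less RNA per cell therefore cannot be told apart.

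All values are log2 expression values, so a difference of 1 is a doubling, and differences are given as Usp2-KO minus WT. Values of the 4 arrays ranged from 2.37 to 14.58, array medians from 7.44 to 7.46, and correlations between arrays over all genes from 0.997 to 0.998. Usp2 was at 11.63 and 11.71 in the WT pools and at 7.65 and 7.60 in the Usp2-KO pools, in the direction of the labels. It was the 1 gene of 19934 with an adjusted p under 0.05 by limma, a share of 0.00502%. The kidney tubule markers Umod, Lrp2 and Slc34a1 had values between 13.36 and 14.06 in every pool. The files hold no detection calls. A low value cannot be assigned to transcript or to background, and levels of different genes are not compared, because each row has its own probes. No exact permutation test of 2 against 2 arrays can give a p below 0.333.

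Promoter windows, each with 250 bases before and 50 after a gene's start, were taken from RefSeq on the GRCm38.p6 assembly, which had entries for 35 of the 44 genes (38 windows). Col4a1 and Col4a2, which encode the type IV chains found in nearly all basement membranes, are transcribed in opposite directions from starts close together, so their windows overlap. The windows are shown because a shared start is a reason to set the values of both genes side by side. Capitals mark the 78 bases that both windows hold, read on opposite strands. The Col4a1 window is chr8:11312777-11313076 on the minus strand, and the Col4a2 window is chr8:11312555-11312854 on the plus strand.
Col4a1: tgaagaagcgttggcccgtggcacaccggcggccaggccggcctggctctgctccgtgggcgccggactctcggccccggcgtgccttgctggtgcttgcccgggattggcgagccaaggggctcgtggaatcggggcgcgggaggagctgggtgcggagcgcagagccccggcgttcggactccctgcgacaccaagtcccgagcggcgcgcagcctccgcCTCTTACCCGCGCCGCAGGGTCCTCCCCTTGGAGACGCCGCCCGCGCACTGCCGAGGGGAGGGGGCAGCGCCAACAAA
Col4a2: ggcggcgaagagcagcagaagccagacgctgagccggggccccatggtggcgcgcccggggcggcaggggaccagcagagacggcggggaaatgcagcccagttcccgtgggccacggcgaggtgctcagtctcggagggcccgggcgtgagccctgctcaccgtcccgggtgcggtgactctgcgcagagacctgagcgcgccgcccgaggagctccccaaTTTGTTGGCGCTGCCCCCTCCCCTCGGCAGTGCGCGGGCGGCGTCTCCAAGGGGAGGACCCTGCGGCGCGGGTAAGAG
The windows of Col11a1, Col10a1 and Col28a1 are shown because these were the 3 collagen genes with an unadjusted p under 0.05. Capitals mark the motif TATAAA, the motif CCAAT or the motif GGGCGG, searched on both strands. The Col11a1 window is chr3:114030290-114030589 (plus strand), the Col10a1 window chr10:34389731-34390030 (plus strand) and the Col28a1 window chr6:8192568-8192867 (minus strand).
Col11a1: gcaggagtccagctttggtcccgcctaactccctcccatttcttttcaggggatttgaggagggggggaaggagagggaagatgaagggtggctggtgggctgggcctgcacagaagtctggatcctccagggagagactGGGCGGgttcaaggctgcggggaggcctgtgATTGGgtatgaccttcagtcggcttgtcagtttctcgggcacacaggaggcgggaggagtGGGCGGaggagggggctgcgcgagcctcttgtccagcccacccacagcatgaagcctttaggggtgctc
Col10a1: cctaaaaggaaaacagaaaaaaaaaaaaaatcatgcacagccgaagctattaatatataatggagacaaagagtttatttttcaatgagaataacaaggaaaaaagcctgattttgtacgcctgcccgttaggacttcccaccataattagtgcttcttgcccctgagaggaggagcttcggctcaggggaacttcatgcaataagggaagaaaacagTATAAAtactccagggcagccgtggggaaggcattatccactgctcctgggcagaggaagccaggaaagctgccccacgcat
Col28a1: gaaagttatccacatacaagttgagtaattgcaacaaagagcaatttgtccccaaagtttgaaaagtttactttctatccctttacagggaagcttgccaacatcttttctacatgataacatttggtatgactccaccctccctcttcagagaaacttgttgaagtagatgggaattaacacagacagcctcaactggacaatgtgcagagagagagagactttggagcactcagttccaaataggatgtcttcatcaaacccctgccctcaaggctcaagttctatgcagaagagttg
The window of Col11a1 held GGGCGG 2 times and CCAAT 1 time, that of Col10a1 held TATAAA 1 time, and that of Col28a1 held none of these letter runs. The 3 genes therefore shared none of them. TATAAA was found in 5 of the 38 collagen windows (13.2%) and in 13.6% of all 32851 windows of the table. CCAAT was found in 13 of 38 (34.2%) against 37.4% of all windows, and GGGCGG in 23 of 38 (60.5%) against 35.7%. In the stretch shared by Col4a1 and Col4a2, GGGCGG occurred 1 time and the others did not occur. A match is a description of these letters and not a binding site.

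In the comparison of Usp2-KO with WT kidney by limma, no collagen chain gene had an adjusted p under 0.05, and the lowest adjusted p among them was 0.379, of Col11a1. The differences were small. They ran from -0.25 for Col11a1 to 0.07 for Col5a2, with standard errors between 0.07 and 0.12, and the 95% confidence intervals of all 44 genes lay between -0.42 and 0.24. At an unadjusted p under 0.05 there were 3 lower genes and 0 higher ones, where 3.88% of all genes were lower and 5.22% higher at that threshold. The 3 lower genes are 6.82% of the 44. The values of the remaining 41 collagen genes differed by between -0.16 and 0.07.

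The signs of these small differences were uneven. Usp2-KO was below WT in 35 of the 44 genes (79.5%), against 52.4% of all genes, and the median difference was -0.06, against -0.01 over all genes. Both Usp2-KO pools were below both WT pools in 18 genes, 40.9% of the 44, where the background was 19.1%. Both were above both WT pools in 2 genes, Col12a1 and Col24a1, 4.55% of the 44, against 19.8%. The pools overlapped in 24 genes. Leaving out WT pool 1 reduced the 35 genes to 29, where 53.1% of all genes were lower, and brought the median to -0.03. Without Usp2-KO pool 1 the median was also -0.03, with 33 genes lower, against 53.3% of all genes. Genes were not tested together as a list, and the collagen genes are not independent of each other.

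**Figure D1:**
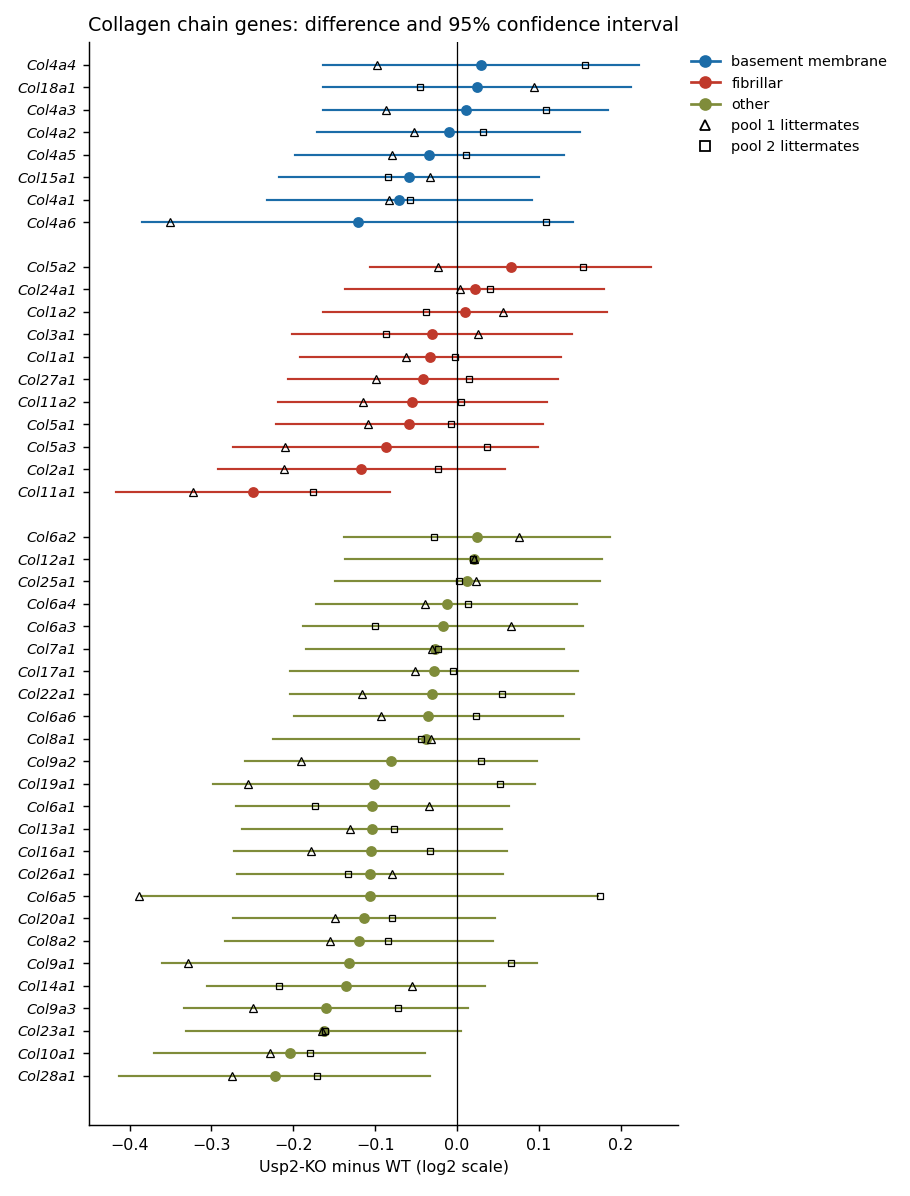
Difference between Usp2-KO and WT kidney (log2 scale, horizontal axis) for each of the 44 collagen chain genes, by class. Filled points are limma estimates with 95% confidence intervals, and open triangles and squares are the differences of the pool 1 and pool 2 littermates. The intervals of Col11a1, Col10a1 and Col28a1 lie below 0 and those of the other 41 genes include 0.

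Basement membrane collagens had a median difference of -0.02 over 8 genes, with 5 lower and 3 higher. Without WT pool 1 this median was 0.03, without Usp2-KO pool 1 it was -0.05, and it was -0.04 without either pool 2. Col4a1 was at 9.02 and 8.96 in the WT pools and at 8.93 and 8.90 in the Usp2-KO pools. Both Usp2-KO pools lay below both WT pools, by -0.07 on average (SE 0.07, adjusted p = 0.825 by limma). Col4a2, its partner at the shared start, was at 9.17 and 9.13 in WT and at 9.11 and 9.16 in Usp2-KO kidney. Its pools overlapped, with a difference of -0.01 (95% confidence interval -0.17 to 0.15). The difference between these partners is smaller than the standard error of either.

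Of the chains of the glomerular basement membrane, Col4a3 was at 9.12 and 9.02 in WT pools 1 and 2 and at 9.03 and 9.13 in Usp2-KO pools 1 and 2. Col4a4 was at 9.18 and 9.12 in WT and at 9.08 and 9.28 in Usp2-KO kidney. The pools of both genes overlapped, and in both genes Usp2-KO pool 2 was the highest of the 4 pools. The differences were 0.01 for Col4a3 (95% confidence interval -0.16 to 0.18) and 0.03 for Col4a4 (-0.16 to 0.22). Col4a5 was at 7.71 and 7.62 in WT and at 7.63 and 7.63 in Usp2-KO kidney, a difference of -0.03 with overlapping pools. Col4a6, whose chain joins that of Col4a5 in Bowman's capsule and some other basement membranes, was at 7.04 and 6.65 in WT and at 6.69 and 6.76 in Usp2-KO kidney. WT pool 1 stood above the other 3 pools there, and the difference of -0.12 (SE 0.12) was 0.07 without that pool.

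The remaining basement membrane genes encode multiplexins, collagens that carry sugar chains and an inhibitor of vessel growth at their end. Col15a1 was at 8.51 and 8.53 in WT and at 8.47 and 8.45 in Usp2-KO kidney. The groups did not overlap, and the difference was -0.06 (SE 0.07, adjusted p = 0.853 by limma). Col18a1 was at 9.10 and 9.05 in WT and at 9.19 and 9.01 in Usp2-KO kidney, where the Usp2-KO pools enclosed both WT pools. Its difference was 0.02 (95% confidence interval -0.16 to 0.21).

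**Figure D2:**
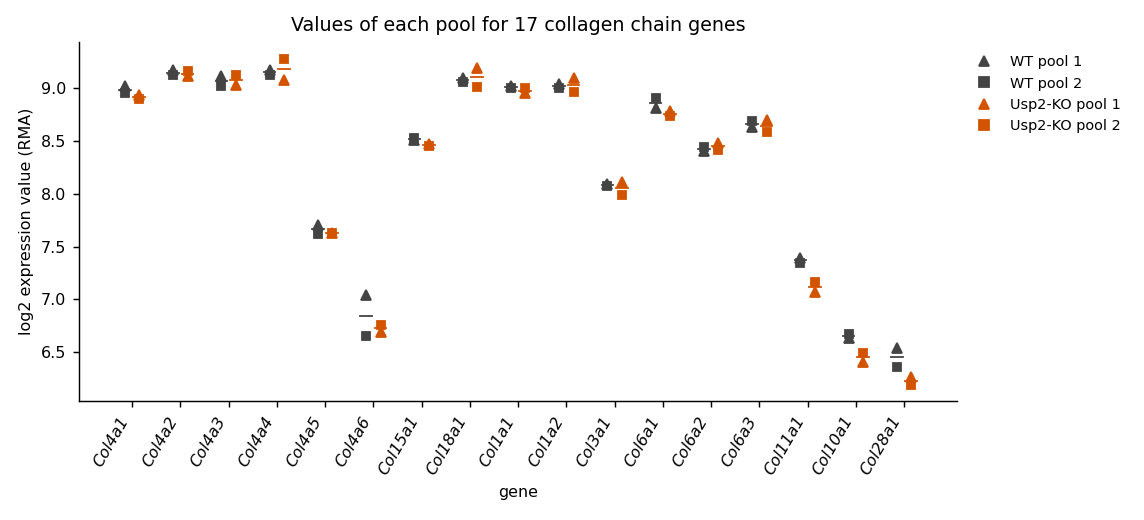
Log2 expression value (vertical axis) of each pool for the basement membrane, type I and type III collagen genes, for Col6a1, Col6a2 and Col6a3 and for the 3 genes with an unadjusted p under 0.05 (Col11a1, Col10a1 and Col28a1). Triangles are pool 1, squares pool 2 and short lines the mean of the 2 pools, and the group means of the first 14 genes differ by at most 0.12.

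Fibrillar collagens had a median difference of -0.04 over 11 genes, with 8 lower and 3 higher. Without Usp2-KO pool 2 the median was -0.09, and without Usp2-KO pool 1 it was -0.02. The chains of type I collagen, the main fibre of scar and bone, were close in both genotypes. Col1a1 was at 9.02 and 9.00 in WT and at 8.95 and 9.00 in Usp2-KO kidney. The Usp2-KO pools lay just below the WT pools, with a difference of -0.03 (95% confidence interval -0.19 to 0.13). Col1a2, the partner chain of Col1a1, was at 9.04 and 9.00 in WT and at 9.09 and 8.96 in Usp2-KO kidney, and its difference of 0.01 had overlapping pools. Col3a1, the type III chain of soft tissue, was at 8.09 and 8.08 in WT and at 8.11 and 7.99 in Usp2-KO kidney. It differed by -0.03 (95% confidence interval -0.20 to 0.14), again with overlap. Type V chains, which are built into type I fibrils and limit their width, differed by -0.09 for Col5a3, by -0.06 for Col5a1 and by 0.07 for Col5a2. The last is the largest positive difference of all collagen genes, with 7.24 and 7.17 in WT and 7.22 and 7.32 in Usp2-KO kidney.

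Col11a1, a chain of the thin fibrils of cartilage, had the largest difference among the collagens. It was at 7.39 and 7.34 in the WT pools and at 7.07 and 7.17 in the Usp2-KO pools. Both Usp2-KO pools were lower than both WT pools, by -0.25 (SE 0.07, 95% confidence interval -0.42 to -0.08), a ratio of 0.841 on the linear scale. Its unadjusted p was 0.00844 and its adjusted p 0.379 by limma. Leaving out any 1 pool gave differences between -0.30 and -0.20. Col11a2, the second chain of that type, differed by -0.05 with overlapping pools, and Col2a1, the main fibrillar collagen of cartilage, by -0.12. Col24a1, another fibrillar gene, was at 7.16 and 7.13 in WT and at 7.16 and 7.17 in Usp2-KO kidney, a difference of 0.02 with the Usp2-KO pools just above, and Col27a1 differed by -0.04.

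The other collagens had a median difference of -0.10 over 25 genes, with 22 lower and 3 higher. It was -0.07 without WT pool 1 and -0.07 without Usp2-KO pool 1. Col10a1, a short-chain collagen made by enlarged cartilage cells of growth plates, was at 6.64 and 6.67 in WT and at 6.41 and 6.50 in Usp2-KO kidney. The groups did not overlap, and the difference was -0.20 (SE 0.07, unadjusted p = 0.0208, adjusted p = 0.446 by limma). Col28a1, a chain related to the beaded type VI family, was at 6.54 and 6.36 in WT and at 6.27 and 6.19 in Usp2-KO kidney. Its Usp2-KO pools were also the lower ones, by -0.22 (SE 0.08, unadjusted p = 0.0263, adjusted p = 0.47 by limma). The difference of Col28a1 was -0.13 without WT pool 1, and that of Col10a1 was -0.16 without Usp2-KO pool 1. The other genes of the short-chain network, Col8a1 and Col8a2, differed by -0.04 and -0.12.

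Of the 6 type VI genes, whose chains form beaded filaments around cells, 5 were lower and 1, Col6a2, was higher. Col6a1 was at 8.82 and 8.90 in WT and at 8.78 and 8.73 in Usp2-KO kidney, with no overlap and a difference of -0.10 (SE 0.07). Col6a2 was at 8.40 and 8.44 in WT and at 8.48 and 8.42 in Usp2-KO kidney, and differed by 0.02. Col6a3 was at 8.64 and 8.69 in WT and at 8.70 and 8.59 in Usp2-KO kidney, and differed by -0.02. These chains assemble into one filament, and their differences lay within 2 standard errors of 0. Col6a4, Col6a5 and Col6a6, which lie side by side on chromosome 9, differed by -0.01, -0.11 and -0.04. Col6a5 had the widest spread, with 7.12 and 7.51 in the Usp2-KO pools, and its second row on the array differed by -0.04. The second row of Col6a6 differed by -0.01. Chromosome 9 also carries Usp2, and the 6 collagen genes on it differed by between -0.11 and 0.02. Of these 6, 0 had an unadjusted p under 0.05 by limma, where 9.11% of all genes did.

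The collagens that sit on the surface of fibrils, known as FACITs, had a median of -0.11 over 9 genes, and 8 were lower. Col9a3, a chain of type IX collagen on cartilage fibrils, was at 8.33 and 8.20 in WT and at 8.08 and 8.13 in Usp2-KO kidney. The groups did not overlap and the difference was -0.16 (SE 0.08). Col14a1, which is found on type I fibrils of soft tissue, was at 9.76 and 9.82 in WT and at 9.71 and 9.60 in Usp2-KO kidney. It differed by -0.14 (SE 0.07), also without overlap. The 1 FACIT above WT was Col12a1, at 8.04 and 8.05 in WT and at 8.06 and 8.06 in Usp2-KO kidney, a difference of 0.02. The others, Col9a1, Col9a2, Col16a1, Col19a1, Col20a1 and Col22a1, differed by between -0.13 and -0.03.

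Membrane-spanning collagens had a median of -0.07 over 4 genes. Col23a1 was at 7.94 and 8.02 in WT and at 7.78 and 7.86 in Usp2-KO kidney, so that the groups were apart, and it differed by -0.16 (SE 0.07, unadjusted p = 0.0555 by limma). Col13a1 differed by -0.10, Col17a1, of the junctions that anchor skin and other epithelia, by -0.03, and Col25a1 by 0.01. Col7a1, the anchoring fibril of skin, differed by -0.03 and Col26a1 by -0.11, in both cases with the Usp2-KO pools the lower ones.

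All 7 genes of types II, IX, X and XI were lower in Usp2-KO kidney, with a median of -0.13 and a range from -0.25 to -0.05. This group was put together after the values were seen and was not tested. Of it, 4 genes had Usp2-KO pools below both WT pools, while 3 overlapped. Over all genes 52.4% were lower and 19.1% were lower without overlap. In the pool 1 littermates 7 of 7 were lower, with a median of -0.23, and in the pool 2 littermates 4 of 7, with a median of -0.02. Non-collagen cartilage genes (Acan, Comp, Hapln1, Matn1 and Matn3) differed by a median of -0.14, and 5 of 5 were lower. Their mean value was 6.24 and 6.18 in the WT pools and 6.09 and 6.07 in the Usp2-KO pools, and none had an adjusted p under 0.05. At such levels more genes of the whole array were lower, 59.9% of those with a mean value below 6 and 64.7% from 6 to 7. The 7 collagen genes had mean values from 6.55 to 8.27, with a median of 8.02. Of all genes from 7 to 8, 56.0% were lower, and of those from 8 to 9, 44.0%. The part of signal near background in the values of these collagen and non-collagen genes was not tested.

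The littermate comparisons differed in sign for 21 of the 44 collagen genes (47.7%), close to the background of 47.8% of all genes. In the pool 1 littermates Usp2-KO was below WT in 36 of 44 genes (background 45.7% of all genes), with a median of -0.09. In the pool 2 littermates it was below in 25 of 44 (background 53.2%), with a median of -0.02. Both pairs were lower in 20 genes, 45.5% of the 44, where the background was 25.3%, and both were higher in 3, or 6.82%, against 26.1%. Of the type IV genes, 6 of 6 were lower in the pool 1 littermates and 1 of 6, Col4a1, in the pool 2 littermates. Col6a5 differed by -0.39 and 0.17, Col4a6 by -0.35 and 0.11 and Col9a1 by -0.33 and 0.07. Col11a1 (-0.32 and -0.18), Col28a1 (-0.28 and -0.17), Col10a1 (-0.23 and -0.18) and Col23a1 (-0.17 and -0.16) were lower in both. With the littermate pools as a block in the limma fit, no collagen gene passed either. The lowest adjusted p was then 0.258, of Col11a1, while 153 of all genes (0.768%) passed.

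**Figure D3:**
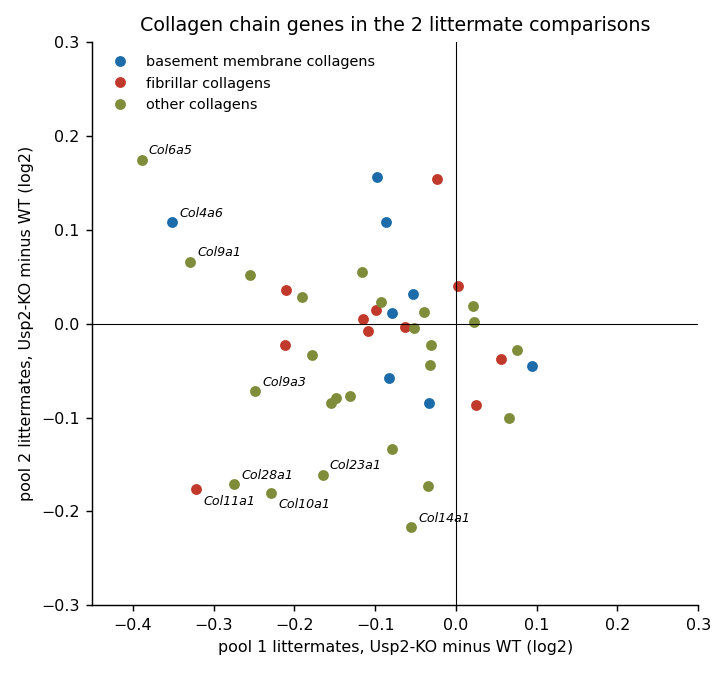
Each point is 1 collagen chain gene, placed by the Usp2-KO minus WT difference of the pool 1 littermates (horizontal axis, log2) and of the pool 2 littermates (vertical axis, log2). Of the 44 genes 20 lie in the lower left, where both differences are below 0, and 3 in the upper right.

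The sign of a difference also moved with array signal over the whole array. Over all genes with a mean value from 6 to 7 the median difference was -0.04 and 64.7% were below 0, and from 7 to 8 these were -0.02 and 56.0%. Among genes from 8 to 9 they were 0.02 and 44.0%, and from 9 to 10 they were 0.02 and 42.7%. Of the collagens, 5 of 6 were lower in the first interval, with a median of -0.12, and 13 of 15 in the second, with -0.09. From 8 to 9, 15 of 17 were lower, with a median of -0.05, and from 9 to 10, 2 of 6, with 0.01. Repeating the quantile normalization, a scaling of the arrays, left 39 of 44 lower, and centring the arrays on their medians left 35.

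**Figure D4:**
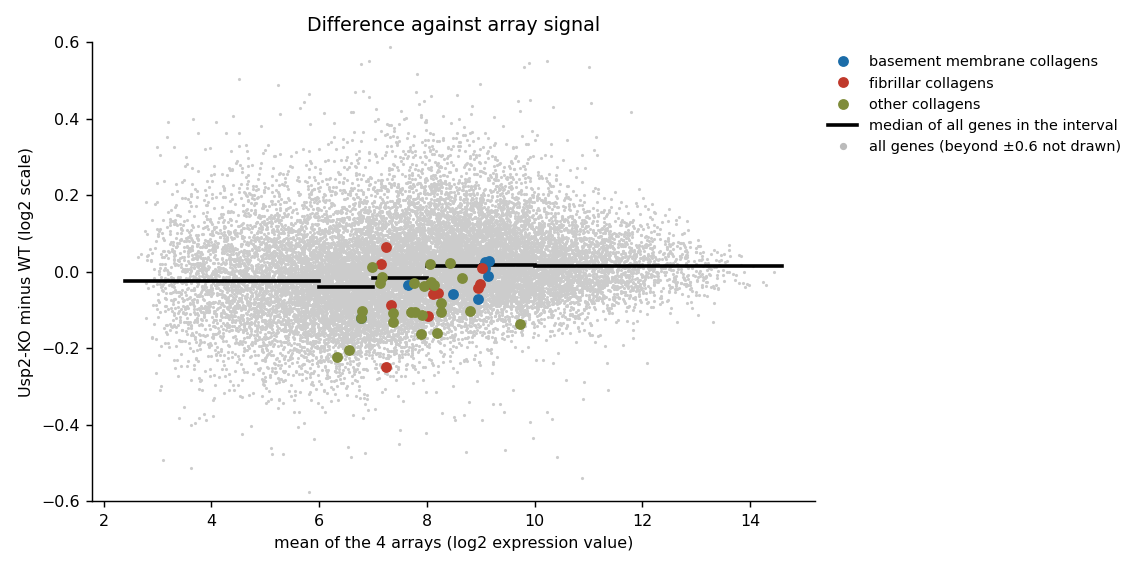
Usp2-KO minus WT difference (log2, vertical axis) against the mean value of the 4 arrays (log2, horizontal axis). Grey points are the genes whose difference lies within the range of the vertical axis. Black lines are the median of all genes in each interval of signal. Coloured points are the collagen chain genes, of which 15 of 17 between 8 and 9 lie below 0.

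Genes that serve collagen were taken from 7 lists, with 100 of 108 listed genes measured, and 0 passed the adjusted threshold by limma. At an unadjusted p under 0.05, 2 of the 100 were lower and 1 was higher, where the background was 3.88% lower and 5.22% higher. Non-collagen basement membrane genes had a median of -0.06, with 16 of 21 lower. Nid2, the nidogen that links laminin to type IV collagen, was at 8.54 and 8.58 in WT and at 8.44 and 8.33 in Usp2-KO kidney, a difference of -0.17 (SE 0.07, adjusted p = 0.545 by limma). Hspg2, the proteoglycan perlecan, differed by -0.12, Frem2 by -0.16 and the laminin chain Lamb3 by -0.12. Enzymes and chaperones that modify and fold collagen had a median of -0.02 over 17 genes, 10 of them lower. Mia3, which loads collagen for export, differed by 0.14, the prolyl hydroxylase P3h2 by 0.14, P3h1 by -0.12 and the sugar transferase Colgalt1 by -0.11. Genes of propeptide cleavage and cross-linking had a median of -0.06, with 9 of 13 lower. Among them Loxl1 differed by -0.16, Tll2 by -0.12, the protease Bmp1 by -0.10 and Loxl4 by -0.09.

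Collagen breakdown genes had a median of -0.05, with 11 of 16 lower. Plat, the tissue plasminogen activator, differed by 0.16, the collagen-cutting protease Ctsk by 0.13, Timp4, an inhibitor of matrix proteases, by -0.14 and Mmp3 by -0.15. Genes of fibril-associated matrix had a median of -0.02, with 7 of 13 lower. Fn1, fibronectin, was at 10.83 and 10.89 in WT and at 10.75 and 10.60 in Usp2-KO kidney, a difference of -0.18 (SE 0.08, adjusted p = 0.538 by limma) with no overlap. Elastin (Eln) differed by -0.14, Fbln2 by -0.13 and Postn by 0.09. Collagen receptors had a median of -0.06 over 8 genes, 5 of them lower. Itga11 differed by -0.19, Itga2 by -0.17, Itga10 by -0.11 and Lair1 by 0.13. In the TGF-beta pathway, a known inducer of fibrillar collagen, 6 of 12 were lower and the median was 0.003. Its receptor Tgfbr1 was at 9.35 and 9.31 in WT and at 9.45 and 9.56 in Usp2-KO kidney, higher by 0.17 (SE 0.07, adjusted p = 0.532 by limma). Tgfb3 differed by 0.13, Smad2 by 0.12 and Tgfb1 by -0.10.

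The 100 genes of these lists differed between the littermate pairs the other way round from the collagens. They were lower in 35 of 100 in the pool 1 littermates (median 0.03) and in 72 of 100 in the pool 2 littermates (median -0.09). All genes of the array moved the same way as these lists by less, with 45.7% and 53.2% lower and medians of 0.01 and -0.01. The contrast of these lists with the collagens was seen in the values and was not tested.

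Markers of the cells that make or surround collagen gave medians of -0.08 for fibroblasts and pericytes (8 of 9 lower) and 0.10 for smooth muscle (5 of 6 higher). Endothelial markers had a median of -0.04 (7 of 8 lower), podocyte markers one of -0.001 (3 of 5 lower) and the mesangial markers Gata3 and Itga8 differed by 0.05 and -0.03. Their mean values over the pools were 8.08 and 8.09 in WT and 8.10 and 7.93 in Usp2-KO kidney for fibroblasts and pericytes, and 10.40 and 10.49 against 10.45 and 10.36 for endothelium. For smooth muscle they were 8.42 and 8.56 against 8.58 and 8.58, and for podocytes 8.85 and 8.79 against 8.87 and 8.84. Among tissues that can cling to a kidney, adipocyte markers had a median of -0.38 (5 of 6 lower), with a mean of 7.05 in Usp2-KO pool 1 and between 7.48 and 7.53 in the other 3 pools. Urothelial markers had a median of -0.15 (7 of 7 lower), with means of 7.31 and 7.49 in WT and 7.35 and 7.18 in Usp2-KO kidney, and skeletal muscle markers one of -0.06 (5 of 5 lower). Kidney tubule markers had a median of 0.02. The adipocyte markers Adipoq, Plin1, Cidec and Retn were lowest in Usp2-KO pool 1, while Fabp4 and Lep lay there between the WT pools. Usp2-KO pool 1 was also the lower one for the median of all collagens. Their median distance from the WT mean was -0.08 there and -0.03 in Usp2-KO pool 2. In the same order it was -0.09 and -0.02 for fibrillar and -0.10 and -0.07 for other collagens. For basement membrane collagens it was -0.04 and -0.05, which are close to each other, and for the type IV genes among them -0.05 and -0.01. The part of adipose tissue in the collagen values was not tested. In the pool 2 littermates fibroblast and pericyte markers had a median of -0.19, and in the pool 1 littermates 0.02. Endothelial markers were lower in 8 of 8 in the pool 2 littermates (median -0.14) and in 0 of 8 in the pool 1 littermates (median 0.03). Over all genes 53.2% and 45.7% were lower in these pairs.

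**Figure D5:**
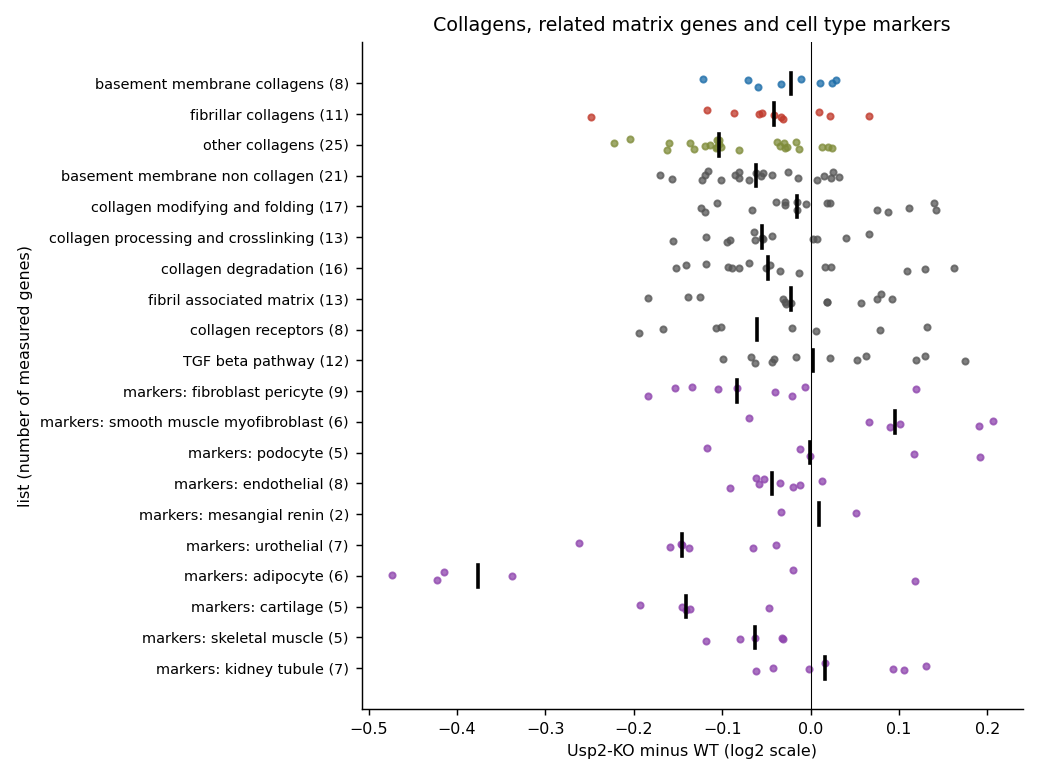
Usp2-KO minus WT difference (log2, horizontal axis) of every measured gene in the collagen classes, the 7 lists of collagen-related genes (grey) and the 10 lists of cell type markers (purple), with the number of genes in brackets. Vertical bars are medians, which lie between -0.15 and 0.10 for all lists except the adipocyte markers at -0.38.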

How the data were processed

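The authors deposited log2 expression values made with RMA, per the submitters' processing notes, which corrects background, equalises the arrays' distributions and summarises probe sets. Software, version and genome build are not given in the sources used here. For labelling, 300 ng of RNA per pool was used with an Affymetrix whole-transcript kit, per the labels' protocols. Of 28270 rows, 21780 carried 1 gene symbol in the platform annotation, 1617 several and 4873 none. The row with the highest mean was kept for each of 19934 genes (996 had several rows). No filter on signal was applied.

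Usp2-KO minus WT was fitted over all genes by lmFit and eBayes of limma 3.58.1 (R 4.3.3) on 2 pools per genotype, with Benjamini-Hochberg adjustment over all genes and a threshold of 0.05. The prior had 6.87 degrees of freedom beside 2 of the arrays. Pools of the same number were taken as littermate pools, so a second fit held the pool number as a block. In that fit the prior had 90.6 degrees of freedom. Deviations of same-numbered pools correlated at -0.121 across genes. The fit was tested on simulated data. The members, classes, 7 lists of related genes and 10 of cell markers were chosen with earlier results of these data known. Genes named with pool values were the type I, III and IV genes, Col6a1 to Col6a3, Col15a1, Col18a1, those with an unadjusted p under 0.05, and the 3 largest positive and 3 largest negative differences among the others. In each related list up to 4 genes of smallest p were named. Other genes were named after their values were seen. The array number limits the precision of all values. Figures were drawn with matplotlib 3.10.9.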

Additional observations from a re-analysis of the deposited data

How the results depend on the processing

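The absence of collagen genes past the adjusted threshold held under all alternatives run: a replicate block for the littermate pools, the same with pool numbers crossed (chosen after the data were seen), an intensity trend, a robust prior, a minimum mean value of 6, the mean of all rows, repeated quantile normalization, median centring and leaving out pools singly, and also at a threshold of 0.10. The same holds for the related lists at the adjusted threshold of 0.05. Over all genes, 1 passed in the main setting, against 153 with the replicate block, 18 with the trend, 7 with the minimum value, 2 at an adjusted p under 0.10, 1 with the crossed block and 1 to 2 with a pool left out. Collagen genes at an unadjusted p under 0.05 numbered 5 after repeated quantile normalization, which added Col14a1, Col23a1 and Col9a3 and lost Col28a1, and 0 to 4 with a pool left out, against 3 (3 with the replicate block). In the main setting 9.11% of all genes had an unadjusted p under 0.05 by limma. That share was not compared in the other settings. Whether these collagen counts moved with the whole array was therefore not tested. With a pool left out, medians ranged from -0.051 to 0.029 for basement membrane, -0.087 to -0.017 for fibrillar and -0.11 to -0.067 for other collagens. With type IV alone the first was -0.02. Of the 23 collagen genes named by rule, 12 kept their sign throughout. Repeated quantile normalization turned Col1a2 (-0.014), Col4a3 (-0.011), Col18a1 (-0.0042) and Col12a1 (-0.0017). Leaving out a pool gave ranges of -0.057 to 0.075 for Col1a2, -0.093 to 0.031 for Col3a1, -0.033 to 0.012 for Col4a2, -0.039 to 0.060 for Col4a3, -0.072 to 0.13 for Col4a4, -0.079 to 0.011 for Col4a5, -0.31 to 0.072 for Col4a6, -0.0085 to 0.057 for Col6a2, -0.075 to 0.041 for Col6a3 and -0.069 to 0.12 for Col18a1. The cause of these changes was not tested. A lone pool is assumed to vary like the other group.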
